A study of Mus musculus with 64 samples.

Results

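BALB/c bone marrow macrophages were compared 8 h after IFN-gamma and 8 h after LPS, a bacterial cell wall component, with untreated cells at 0 h for reference. These groups are 6 of the 64 arrays in the series and were taken by their labels alone: 2 arrays of IFN-gamma at 10 U/ml, 2 of LPS at 5 ng/ml and 2 of 0 h. The series as a whole holds 32 groups of 2 arrays, in which BALB/c or C57BL/6 macrophages were followed to 24 h after inflammatory stimuli. The cells of all 3 groups were grown from femurs of male mice aged 7 to 8 weeks in the growth factor CSF1. They were reseeded at 200000 cells per well and treated on day 7. The labels name no genetic change. Each array held 250 ng of total RNA. The labels give separate wells but do not say that the wells came from separate animals, so p-values measure spread between wells. That spread was pooled for each gene over all 32 groups of the series, and was not taken from the compared wells alone. Each agent was given to BALB/c cells at a single dose, in units that cannot be set against each other, so every difference is one between these doses. No untreated wells at 8 h were analysed here, and a difference from 0 h therefore includes whatever changed over that time in culture. Both treatments share that time, and both share the same 0 h arrays as their starting point.

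IFN-gamma is made by T cells and NK cells and binds a receptor that signals through the kinases Jak1 and Jak2. Its target genes, among them Irf1, Irf8, the class II transactivator Ciita and many guanylate-binding proteins, often carry a promoter element called GAS. LPS is sensed by Cd14, Ly96 and Tlr4, which activate NF-kB and thereby cytokine, chemokine and acute phase genes. The Tlr4 adaptor Ticam1 also leads to secretion of IFN-beta, and IFN-beta acts back on the macrophage through the element called ISRE. The inflammatory gene programmes of both agents thus overlap in the interferon-stimulated genes and part at the NF-kB targets.

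All values below are log2 of the deposited intensity of a gene's probe set, and a difference of 1 is a fold of 2. Differences are IFN-gamma minus LPS, or treatment minus 0 h, as means ± SE with n = 2 arrays per group. The SE rests on the spread pooled over 32 groups, and can be larger or smaller than the arrays compared would give. For Il1a the SD was 0.036 with IFN-gamma and 0.027 with LPS, while the SE of the treatment difference was 0.789. A gene can therefore stay uncalled although its arrays lie close together within each group. For Cd300lf the SD was 0.053 with IFN-gamma and 0.408 with LPS, while the SE was 0.116. A small SE or adjusted p therefore does not mean that the arrays compared lay close together. Adjusted p-values come from limma over 18820 genes. Calls needed a difference of 1 or more in either direction beside an adjusted p under 0.05. Replicate arrays correlated at r = 0.9966 for IFN-gamma, 0.9953 for LPS and 0.9975 for 0 h across genes. Over all arrays 40% of values lay under 4.19, and that level serves below as a mark of dim signal because detection calls were not used here. Of the genes named below, Il6, Il12a, Lcn2, Slamf1, C2, Ccr9, Dcn, Ifnb1, Mir146 and Mir146b averaged under that level with IFN-gamma, and Clec9a did with LPS, so that dim signal limits the size of their differences. At 0 h the same genes but for Lcn2 averaged under it, as did Itgb8, Iigp1, Cxcl9, Nos2 and Mir99a.

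The macrophage markers Adgre1, Cd68, Csf1r, Fcgr1, Itgam, Lyz2, Mertk and Spi1 were not called between the treatments, and the ninth marker on the list, Cd14, was lower with IFN-gamma. Summed intensity of the 9 markers was 37330 and 37400 with IFN-gamma, 41530 and 41120 with LPS, and 36960 and 36570 at 0 h. No marker of granulocytes (11 measured), T and NK cells (7) or B cells (5) was called between the treatments by limma. The same held for erythroid cells (3) and for mast cells and basophils (6). At an unadjusted p under 0.05 in limma these lists had 2, 0, 1, 1 and 0 genes in the same order. All 18820 genes tested had 6715 at that level. Of 7 dendritic cell markers Clec9a was higher and Ccr9 lower with IFN-gamma, at difference values of 1.72 ± 0.19 (adjusted p = 1.09e-09) and -2.37 ± 0.21 (adjusted p = 4.49e-12), and the list's summed intensity was 134.3 and 130.7 with IFN-gamma, 143.6 and 140.3 with LPS, and 102.6 and 101.6 at 0 h. Of 6 stromal markers Pdgfrb and Dcn were lower with IFN-gamma, at -3.28 ± 0.22 (adjusted p = 5.27e-15) and -2.16 ± 0.24 (adjusted p = 1.22e-09), while Col1a1, Col1a2, Col3a1 and Lum were not called. The summed stromal intensity was 177 and 172 with IFN-gamma, 747.6 and 724.9 with LPS, and 171.6 and 183.9 at 0 h. The part of these markers in the other results was not tested. In such bulk samples fewer cells of a type and less RNA per cell cannot be told apart.

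Promoters of 8 genes described below are shown as examples of the elements named above, chosen for their matches. Irf1 among them rose with both agents and was not called between them. RefSeq sequences of build GRCm38.p6 were searched from 250 bases before to 50 after each listed start, on both strands, for GAS (TTC and GAA with 3 bases between them), ISRE (GAAA and GAAA with 2 bases between them) and the NF-kB consensus. The 180 bases before the start are shown for 8 genes, 5′ to 3′ on the gene's strand, with every match to the element named for that gene in capitals. Irf8 and Irf1 are shown for GAS, and Irf1 also for its NF-kB match. Slamf8 and Isg15 are shown for ISRE, and the capital run of Isg15 holds 3 overlapping matches. The chemokines Cxcl1, Cxcl2 and Cxcl3 and the cytokine Il6 are shown for NF-kB, and each chemokine's capital run holds 2 overlapping matches. The windows lie at chr8:120736178-120736357 (+ strand) for Irf8, chr11:53769834-53770013 (+) for Irf1, chr1:172590569-172590748 (- strand) for Slamf8 and chr4:156200819-156200998 (-) for Isg15. They lie at chr5:90891065-90891244 (+) for Cxcl1, chr5:90903719-90903898 (+) for Cxcl2, chr5:90785921-90786100 (+) for Cxcl3 and chr5:30012934-30013113 (+) for Il6.
Irf8: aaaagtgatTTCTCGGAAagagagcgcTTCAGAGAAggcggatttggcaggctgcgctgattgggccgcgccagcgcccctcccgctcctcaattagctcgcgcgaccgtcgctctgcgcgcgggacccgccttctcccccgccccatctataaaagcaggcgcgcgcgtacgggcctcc
Irf1: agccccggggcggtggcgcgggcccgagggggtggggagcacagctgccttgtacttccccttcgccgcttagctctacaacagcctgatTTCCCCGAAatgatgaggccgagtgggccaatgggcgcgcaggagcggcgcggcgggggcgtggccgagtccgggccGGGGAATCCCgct
Slamf8: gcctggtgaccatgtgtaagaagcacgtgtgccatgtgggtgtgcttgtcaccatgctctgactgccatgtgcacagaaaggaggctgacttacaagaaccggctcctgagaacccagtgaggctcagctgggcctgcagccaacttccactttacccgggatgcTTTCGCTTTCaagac
Isg15: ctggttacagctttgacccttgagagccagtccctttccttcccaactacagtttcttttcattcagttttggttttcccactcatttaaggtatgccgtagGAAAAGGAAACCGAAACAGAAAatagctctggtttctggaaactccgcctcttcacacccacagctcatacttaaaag
Cxcl1: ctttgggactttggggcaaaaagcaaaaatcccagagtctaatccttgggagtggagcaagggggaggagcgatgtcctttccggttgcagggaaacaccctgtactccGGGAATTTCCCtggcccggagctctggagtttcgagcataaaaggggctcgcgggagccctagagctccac
Cxcl2: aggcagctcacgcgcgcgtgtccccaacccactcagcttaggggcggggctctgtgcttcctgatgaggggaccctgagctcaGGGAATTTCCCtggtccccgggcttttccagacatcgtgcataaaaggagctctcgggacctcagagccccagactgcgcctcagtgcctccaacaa
Cxcl3: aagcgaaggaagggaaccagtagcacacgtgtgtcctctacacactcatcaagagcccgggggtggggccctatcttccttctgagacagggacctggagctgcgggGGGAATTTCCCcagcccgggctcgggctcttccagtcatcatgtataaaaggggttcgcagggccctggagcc
Il6: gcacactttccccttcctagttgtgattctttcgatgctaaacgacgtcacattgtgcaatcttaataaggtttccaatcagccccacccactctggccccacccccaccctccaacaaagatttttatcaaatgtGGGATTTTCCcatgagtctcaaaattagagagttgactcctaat

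Counted over all 32851 promoters of the table, 8.3% held a GAS match, 3.44% an ISRE match and 8.46% an NF-kB match. Over the 18155 promoters of genes tested here the shares were 7.71%, 3.27% and 9.61% in the same order. Genes higher with IFN-gamma than with LPS had 899 promoters, of which 6.12% held GAS, 2.67% ISRE and 10.9% NF-kB. Genes lower with IFN-gamma had 695 promoters, of which 6.91% held GAS, 7.48% ISRE and 15.8% NF-kB. Against 0 h the genes raised by IFN-gamma had 330 promoters with 10.3% GAS, 17.0% ISRE and 16.1% NF-kB, and those raised by LPS had 1022 promoters with 7.93%, 8.71% and 14.4% for the same elements. ISRE was held by 83.3% of 6 promoters of the GTPase list, 59.3% of 27 of the antiviral list and 26.7% of 15 of the MHC class I list. The NF-kB consensus was held by 55.6% of 27 promoters of the NF-kB list, 38.5% of 13 of the chemokine list, 33.3% of 15 of the MHC class I list and 25.0% of 24 of the cytokine list. It was also held by 33.3% of 6 promoters of the GTPase list and 25.9% of 27 of the antiviral list. The co-stimulation and adhesion list had it in 25.0% of 12 and the MHC class II list in 22.2% of 9. GAS was held by 33.3% of 6 promoters of the GTPase list, 31.8% of 22 of the interferon receptor, JAK-STAT and IRF list and 25.9% of 27 of the antiviral list. These shares describe letters in a window and are no measure of binding. Promoters were matched for 667 of the 836 genes higher with IFN-gamma and for 528 of the 682 lower.

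IFN-gamma and LPS left the macrophages with 1518 genes apart at 8 h, 8.07% of the 18820 tested. Of these, 836 (4.44%) were higher with IFN-gamma and 682 (3.62%) were lower. The lower side held the large differences: 80 genes were lower by 3 or more on the log2 scale and 14 were higher by that much, with extremes of -8.47 for Il1a and 4.14 for Cnr2. The median difference over all genes was 0.01. After centring each array on its median that value was -0.13, and 641 genes were higher against 831 lower, so the balance of the directions depends on the scaling. With quantile normalisation 694 were higher and 744 lower.

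Against 0 h, IFN-gamma changed 506 genes (2.69%), 320 up (1.7%) and 186 down (0.988%). LPS changed 2372 genes (12.6%), 978 up (5.2%) and 1394 down (7.41%). For most genes that parted the treatments the 0 h mean lay nearer to the IFN-gamma mean than to the LPS mean. Nearer does not mean unchanged. Ptgs2 is such a gene, and it rose over 0 h by 4.705 with IFN-gamma and 7.665 with LPS. Of the 836 genes higher with IFN-gamma, the 0 h mean was nearer to the IFN-gamma mean for 746 (89.2%), against 72% of the 9642 genes tested whose IFN-gamma mean was the higher one. For 533 of the 836 the 0 h mean lay above both treatments, for 276 between them and for 27 below both. Of the 9642 genes it lay above both for 5316, between them for 2590 and below both for 1736. A position above both was thus common among all such genes, and these positions were not recounted on centred arrays. The 836 genes had a median difference from 0 h of -0.19 with IFN-gamma and -1.61 with LPS. Of the 682 genes lower with IFN-gamma, the 0 h mean was nearer to IFN-gamma for 643 (94.3%), against 62.2% of 9175. Their median difference from 0 h was 0.11 with IFN-gamma and 1.81 with LPS. With centred arrays the nearer shares were 86.1% and 95.9%. The same 0 h arrays stand in both differences.

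**Figure D1:**
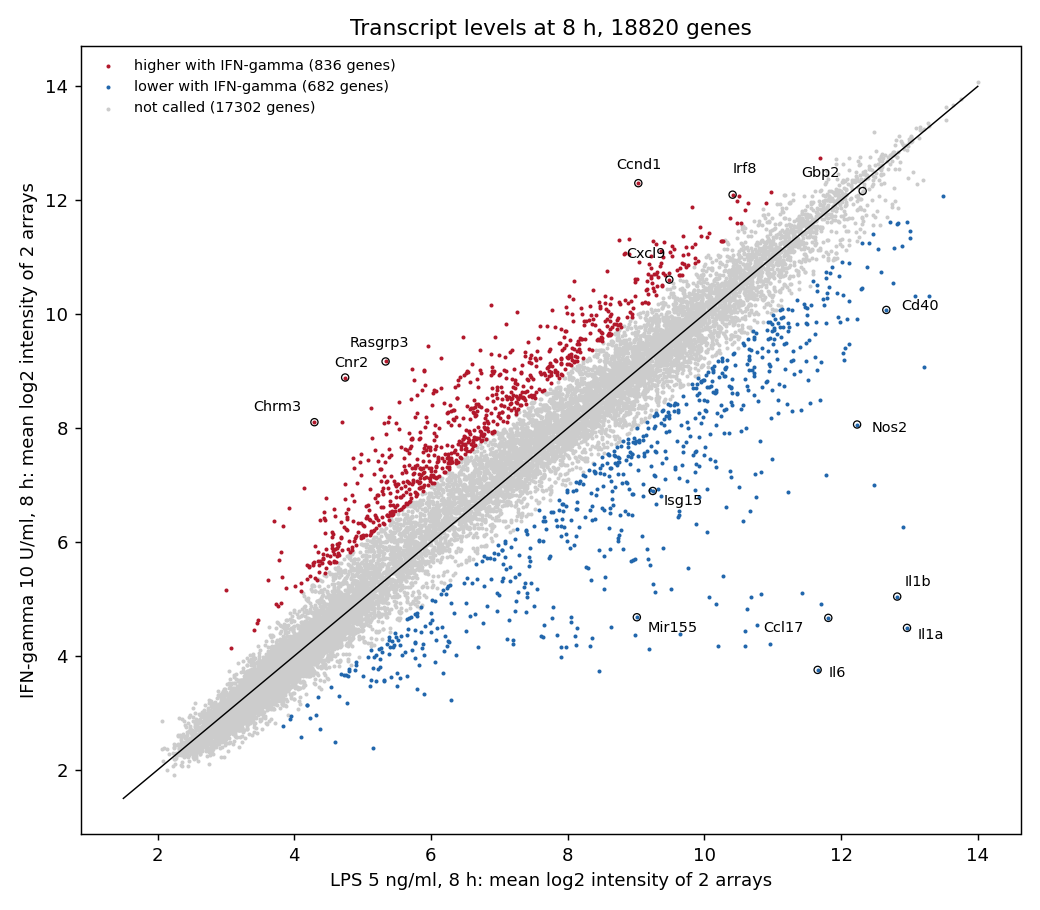
Mean log2 intensity of 2 arrays at 8 h for 18820 genes, IFN-gamma on the vertical and LPS on the horizontal axis, with the diagonal as the line of equal levels. The 836 genes called higher with IFN-gamma (red) reach 4.14 above the line with Cnr2, while the 682 called lower (blue) reach down to Il1a at -8.47.

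The genes that stood highest with IFN-gamma relative to LPS included receptors, signalling enzymes and a G1 cyclin. The 12 described here had the largest positive difference among called genes whose arrays of the 2 treatments did not overlap. By array order alone, without the call, 33.3% of all genes lay higher with IFN-gamma in this way and 28.5% lower. Cnr2, the cannabinoid receptor of immune cells, read 8.93 and 8.85 with IFN-gamma, 4.79 and 4.70 with LPS and 8.09 and 8.07 at 0 h. The difference between treatments was 4.14 ± 0.14 (adjusted p = 1.05e-23), and both LPS arrays lay far below 0 h, at -3.33 ± 0.14 (adjusted p = 2.67e-21) from 0 h. Rasgrp3, an exchange factor for Ras and Rap GTPases, read 9.17 and 9.18 with IFN-gamma, 5.45 and 5.23 with LPS and 9.85 and 9.79 at 0 h. Ccnd1, cyclin D1 of the G1 phase, read 12.27 and 12.33 with IFN-gamma, 9.10 and 8.97 with LPS and 12.17 and 12.23 at 0 h. For both genes the IFN-gamma arrays stood near the 0 h arrays and the LPS arrays far below, with treatment differences of 3.83 ± 0.21 (adjusted p = 1.47e-17) for Rasgrp3 and 3.27 ± 0.10 (adjusted p = 6.21e-25) for Ccnd1.

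Of the same 12, Hip1 (an endocytic clathrin adaptor), Gcnt1 (an enzyme of core O-glycan branching), Cyp2s1 (a cytochrome P450) and Cd300lf (a myeloid receptor of the CD300 family) also fell with LPS and were not called between IFN-gamma and 0 h. Their treatment differences were 3.28 ± 0.16 (adjusted p = 4.56e-19) for Hip1, 3.13 ± 0.14 (adjusted p = 3.08e-20) for Gcnt1, 3.11 ± 0.21 (adjusted p = 5.69e-15) for Cyp2s1 and 3.41 ± 0.12 (adjusted p = 1.05e-23) for Cd300lf. The other 5 rose above 0 h with IFN-gamma. Chrm3, a muscarinic acetylcholine receptor, read 8.00 and 8.21 with IFN-gamma, 3.92 and 4.67 with LPS and 4.52 and 4.91 at 0 h. Sectm1a, a small transmembrane protein gene, read 8.36 and 8.34 with IFN-gamma, 4.90 and 5.35 with LPS and 4.08 and 4.38 at 0 h. Each of these was far highest in the IFN-gamma arrays, and the differences between treatments were 3.81 ± 0.22 (adjusted p = 3.22e-17) for Chrm3 and 3.22 ± 0.22 (adjusted p = 8.66e-15) for Sectm1a. Mex3b, an RNA-binding protein gene, Dusp10, a phosphatase of stress-activated MAP kinases, and Enc1, a kelch-family protein gene, moved apart from 0 h in opposite directions. Mex3b changed by 2.30 ± 0.19 (adjusted p = 4.33e-12) with IFN-gamma and -1.18 ± 0.19 (adjusted p = 2.44e-06) with LPS. Dusp10 changed by 1.95 ± 0.14 (adjusted p = 5.63e-14) with IFN-gamma and -1.37 ± 0.14 (adjusted p = 8.09e-11) with LPS. Enc1 changed by 1.29 ± 0.17 (adjusted p = 2.87e-07) with IFN-gamma and -1.80 ± 0.17 (adjusted p = 2.01e-11) with LPS. All 3 thus lay above 0 h with IFN-gamma and below it with LPS.

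**Figure D2:**
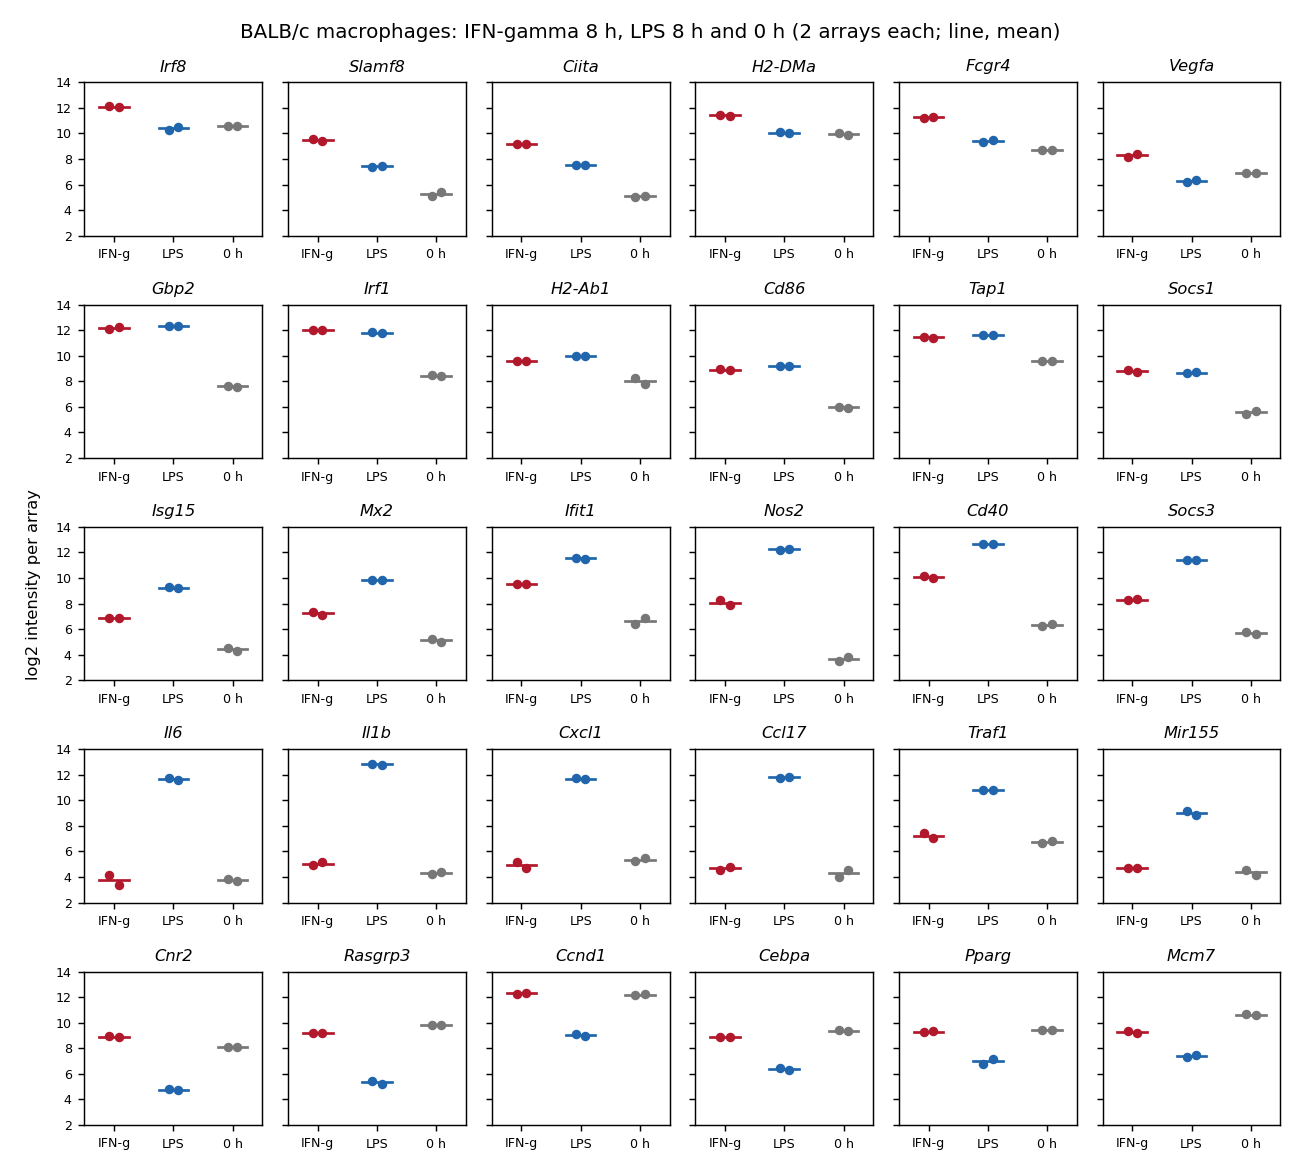
Log2 intensity of every array of selected genes, IFN-gamma 8 h at the left of each panel, LPS 8 h in the middle and 0 h at the right, with points for arrays and lines for the means of 2. Irf8 and Slamf8 are highest with IFN-gamma, Gbp2, Irf1 and Cd86 stand at like levels with both agents, and Il6, Il1b and Ccl17 are high with LPS alone.

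Among 21 measured genes of the interferon receptors, the JAK-STAT pathway and the IRF factors, Irf8 was higher with IFN-gamma, 7 were lower and 13 were not called. The list's median difference was -0.41. Against 0 h, 10 of the 21 rose with IFN-gamma, and 12 rose and 1 fell with LPS. Irf8, a myeloid transcription factor whose promoter above carries 2 GAS matches, read 12.13 and 12.07 with IFN-gamma, 10.29 and 10.54 with LPS and 10.55 and 10.55 at 0 h. The IFN-gamma arrays stood above all others and the LPS arrays lay just below the 0 h arrays, with a treatment difference of 1.69 ± 0.12 (adjusted p = 4.38e-14). Irf1, the factor first named for binding the IFN-beta promoter, read 12.01 and 12 with IFN-gamma, 11.83 and 11.75 with LPS and 8.50 and 8.39 at 0 h. It rose with both agents, by 3.56 ± 0.12 (adjusted p = 5.26e-23) with IFN-gamma and 3.35 ± 0.12 (adjusted p = 3.48e-23) with LPS, and was not called between them at 0.22 ± 0.12 (adjusted p = 0.213).

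The 7 genes that were lower with IFN-gamma were led by feedback inhibitors of cytokine receptors. Cish, a SOCS-family inhibitor of STAT5 signalling, read 5.39 and 5.13 with IFN-gamma, 9.31 and 9.19 with LPS and 4.54 and 4.73 at 0 h, a difference of -3.99 ± 0.27 (adjusted p = 2.44e-15). Socs3, an inhibitor of signalling through gp130, read 8.29 and 8.33 with IFN-gamma, 11.41 and 11.41 with LPS and 5.75 and 5.63 at 0 h. Socs3 rose with both agents and more with LPS, at a treatment difference of -3.10 ± 0.29 (adjusted p = 2.84e-11). Socs1, the main inhibitor of the IFN-gamma receptor's kinases, instead read 8.91 and 8.71 with IFN-gamma, 8.64 and 8.69 with LPS and 5.47 and 5.68 at 0 h and was not called between the treatments. The kinase genes Jak2 and Tyk2 were lower with IFN-gamma, at -2.32 ± 0.19 (adjusted p = 6.5e-13) and -1.11 ± 0.18 (adjusted p = 3.04e-06). Usp18, which removes Isg15 from proteins and damps the type I interferon receptor, was lower at -1.69 ± 0.27 (adjusted p = 3.08e-06). Irf7, a factor for type I interferon genes, differed by -1.09 ± 0.34 (adjusted p = 0.0121), a call that was lost without either IFN-gamma array (adjusted p = 0.0562 and 0.0611) or without the first LPS array (adjusted p = 0.0687).

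Ifnb1, which encodes IFN-beta, read 3.27 and 3.30 with IFN-gamma, 4.59 and 4.09 with LPS and 3.25 and 3.39 at 0 h. Only the first LPS array lay above the dim level of 4.19. The difference of -1.06 ± 0.25 (adjusted p = 0.000866) was -0.81 without that array, with an adjusted p of 0.0505. Ifngr1, the ligand-binding chain of the IFN-gamma receptor, fell with LPS, at -1.48 ± 0.18 (adjusted p = 1.19e-08) from 0 h and was not called between IFN-gamma and 0 h at -0.60 ± 0.18 (adjusted p = 0.0214). The treatment difference of 0.89 ± 0.18 (adjusted p = 0.000179) for Ifngr1 stayed under the minimum of 1.

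All 10 measured GTPases of the guanylate-binding and IRG families, which attack vacuoles of intracellular microbes, rose with both agents. Their median difference from 0 h was 4.45 with IFN-gamma and 4.75 with LPS. Between the treatments 3 were higher with IFN-gamma, none was lower and 7 were not called, with a list median of 0.10 that became -0.04 on centred arrays. Gbp8 read 8.42 and 8.32 with IFN-gamma, 6.65 and 6.63 with LPS and 4.55 and 4.41 at 0 h. Iigp1 read 10.85 and 10.86 with IFN-gamma, 9.37 and 9.33 with LPS and 4.06 and 3.27 at 0 h. Gbp4 read 11.11 and 11.37 with IFN-gamma, 9.86 and 9.88 with LPS and 4.65 and 4.10 at 0 h. In these 3 genes both treated pairs stood far above 0 h and the IFN-gamma pair above the LPS pair. The treatment differences were 1.72 ± 0.30 (adjusted p = 1.29e-05) for Gbp8, 1.5 ± 0.45 (adjusted p = 0.00967) for Iigp1 and 1.37 ± 0.33 (adjusted p = 0.00123) for Gbp4. Iigp1 lost its call without the second IFN-gamma array (adjusted p = 0.0522) and without the second LPS array (adjusted p = 0.05). Gbp2 read 12.09 and 12.23 with IFN-gamma, 12.29 and 12.34 with LPS and 7.62 and 7.58 at 0 h, a treatment difference of -0.15 ± 0.42 (adjusted p = 0.849). Gbp5 differed by -1.06 ± 0.41 (adjusted p = 0.0521) and was not called. It was called on centred arrays (-1.19, adjusted p = 0.0238), with dim genes left out (adjusted p = 0.0384), with only the arrays compared (adjusted p = 0.00219) and with only BALB/c arrays (adjusted p = 0.000244).

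In the MHC class II pathway the regulator Ciita and the peptide loading gene H2-DMa were called between the agents. Of 12 measured genes 2 were higher with IFN-gamma, none was lower and 10 were not called, with a median of -0.17. Ciita, the transactivator of class II genes, read 9.19 and 9.21 with IFN-gamma, 7.55 and 7.53 with LPS and 5.02 and 5.14 at 0 h. H2-DMa, a chain of the molecule that loads peptides, read 11.48 and 11.39 with IFN-gamma, 10.13 and 10.01 with LPS and 10.01 and 9.90 at 0 h. Ciita rose with both agents and H2-DMa with IFN-gamma, and the LPS arrays of H2-DMa overlapped the 0 h arrays. The treatment differences were 1.66 ± 0.21 (adjusted p = 2.77e-08) for Ciita and 1.37 ± 0.12 (adjusted p = 5.12e-12) for H2-DMa. The class II chain gene H2-Ab1 read 9.55 and 9.58 with IFN-gamma, 9.99 and 9.99 with LPS and 8.27 and 7.77 at 0 h. Its partner H2-Aa read 9.23 and 8.99 with IFN-gamma, 9.43 and 8.99 with LPS and 8.10 and 8.09 at 0 h. Both chains rose with both agents and neither was called between them, at -0.43 ± 0.22 (adjusted p = 0.159) for H2-Ab1 and -0.10 ± 0.14 (adjusted p = 0.681) for H2-Aa. H2-Ob, a chain of the inhibitor of peptide loading, differed by -0.90 ± 0.19 (adjusted p = 0.000305) and passed the minimum of 1 only on centred arrays (-1.04) and with quantile normalisation (-1.09).

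No gene of 16 measured in the MHC class I pathway was called between IFN-gamma and LPS, with a median of -0.16. At an unadjusted p under 0.05 in limma 5 of the 16 passed, as did 6715 of all 18820 genes tested. The count of 5 is therefore no result about class I genes. Against 0 h, 9 of the 16 rose with IFN-gamma and 12 with LPS. Nlrc5, the class I transactivator, read 11.40 and 11.36 with IFN-gamma, 11.51 and 11.58 with LPS and 8.85 and 9.10 at 0 h. The peptide transporter gene Tap1 read 11.50 and 11.36 with IFN-gamma, 11.65 and 11.62 with LPS and 9.61 and 9.57 at 0 h. The treated arrays lay close together and above 0 h in both genes. The widest differences of the list were those of H2-M3, Psme2 and Psme1, at -0.52 ± 0.13 (adjusted p = 0.00223), -0.48 ± 0.16 (adjusted p = 0.0164) and -0.37 ± 0.10 (adjusted p = 0.00254). H2-M3 is a non-classical class I molecule, and Psme1 and Psme2 encode proteasome activator subunits.

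Antiviral effectors, the interferon-stimulated genes that act on viruses in the cell, were higher with LPS. Of 28 measured genes 17 were lower with IFN-gamma and none was higher, with a median of -1.13. Against 0 h, 22 of the 28 rose with IFN-gamma and 27 with LPS, at medians of 1.39 and 2.92. Isg15, a ubiquitin-like modifier whose promoter above carries ISRE, read 6.89 and 6.91 with IFN-gamma, 9.30 and 9.19 with LPS and 4.56 and 4.31 at 0 h. Mx2, a GTPase that restricts viruses, read 7.34 and 7.12 with IFN-gamma, 9.88 and 9.85 with LPS and 5.25 and 4.99 at 0 h. Isg20, an exonuclease, read 9.28 and 9.35 with IFN-gamma, 12 and 12.05 with LPS and 8.07 and 7.87 at 0 h. In all 3 the order was LPS, then IFN-gamma, then 0 h, with no overlap of arrays. The treatment differences were -2.35 ± 0.36 (adjusted p = 1.57e-06) for Isg15, -2.64 ± 0.33 (adjusted p = 2.99e-08) for Mx2 and -2.71 ± 0.41 (adjusted p = 9.5e-07) for Isg20. Mx1, Ifit1, which binds viral RNA ends, and Rsad2, which makes a chain-terminating nucleotide, differed by -2.31 ± 0.40 (adjusted p = 1.31e-05), -1.99 ± 0.40 (adjusted p = 0.000114) and -1.54 ± 0.41 (adjusted p = 0.00332). IFN-gamma raised these 3 by 2.64 ± 0.40, 2.88 ± 0.40 and 2.77 ± 0.41 over 0 h.

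Inflammatory cytokines held the 3 largest differences of the contrast. Of 26 measured, 18 were lower with IFN-gamma, 1 was higher and 7 were not called, with a median of -1.96. Against 0 h, 6 rose with IFN-gamma and 19 with LPS. Il1a, the alarmin form of interleukin 1, read 4.47 and 4.52 with IFN-gamma, 12.98 and 12.95 with LPS and 4.92 and 4.85 at 0 h. Il6, whose promoter above carries an NF-kB match, read 4.15 and 3.36 with IFN-gamma, 11.71 and 11.60 with LPS and 3.81 and 3.70 at 0 h. Il1b read 4.93 and 5.15 with IFN-gamma, 12.84 and 12.80 with LPS and 4.22 and 4.37 at 0 h. The IFN-gamma arrays of all 3 lay within 1 log2 of the 0 h arrays and near the dim level, and the LPS arrays lay far above. The treatment differences were -8.47 ± 0.79 (adjusted p = 2.15e-11) for Il1a, -7.90 ± 0.56 (adjusted p = 1.36e-14) for Il6 and -7.78 ± 0.93 (adjusted p = 9.2e-09) for Il1b. Both subunits of the T cell cytokine interleukin 12 showed the same split, at -6.42 ± 0.22 (adjusted p = 1.05e-23) for Il12a and -5.25 ± 0.31 (adjusted p = 1.13e-16) for Il12b.

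Some cytokines rose with IFN-gamma too. Tnf read 11.33 and 11.35 with IFN-gamma, 13.02 and 12.99 with LPS and 10.22 and 9.99 at 0 h, a rise of 1.24 ± 0.14 (adjusted p = 5.28e-09) with IFN-gamma and 2.90 ± 0.14 (adjusted p = 4.8e-20) with LPS. Il27, a subunit of an interleukin 12 relative, rose by 1.59 ± 0.28 (adjusted p = 3.76e-05) with IFN-gamma and 5.93 ± 0.28 (adjusted p = 4.02e-20) with LPS. Tnf and Il27 differed between the treatments by -1.66 ± 0.14 (adjusted p = 7.02e-13) and -4.35 ± 0.28 (adjusted p = 6.95e-16). Vegfa, an angiogenic factor, was the cytokine gene that was higher with IFN-gamma. It read 8.18 and 8.39 with IFN-gamma, 6.17 and 6.32 with LPS and 6.88 and 6.91 at 0 h, at a treatment difference of 2.04 ± 0.17 (adjusted p = 8.9e-13).

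Of 20 measured chemokine genes 13 were lower with IFN-gamma and Cxcl9 was higher, with a median of -1.59. Against 0 h, 5 rose with IFN-gamma and 18 with LPS. The promoter windows printed above for the neutrophil chemokine genes Cxcl1, Cxcl2 and Cxcl3 lie within chr5:90785921-90903898 and share the NF-kB match. Cxcl1 read 5.16 and 4.68 with IFN-gamma, 11.75 and 11.67 with LPS and 5.23 and 5.50 at 0 h. Cxcl2 read 6.22 and 6.32 with IFN-gamma, 12.88 and 12.94 with LPS and 7.84 and 7.17 at 0 h. Cxcl3 read 4.33 and 4.10 with IFN-gamma, 10.93 and 10.99 with LPS and 4.33 and 4.39 at 0 h. LPS arrays stood far above the other 4 in each, and the treatment differences were -6.79 ± 0.46 (adjusted p = 4.6e-15) for Cxcl1, -6.64 ± 0.73 (adjusted p = 1.21e-09) for Cxcl2 and -6.75 ± 0.48 (adjusted p = 1.28e-14) for Cxcl3. Ccl17 and Ccl22, which draw Ccr4-bearing T cells, followed the same pattern at -7.14 ± 0.39 (adjusted p = 7.27e-18) and -6.31 ± 0.29 (adjusted p = 7.95e-20). Ccl5, a T cell chemokine, read 9.05 and 9.11 with IFN-gamma, 13.20 and 13.22 with LPS and 7.16 and 7.30 at 0 h, and its difference from 0 h of 1.85 ± 0.78 (adjusted p = 0.116) with IFN-gamma was not called.

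The Cxcr3 ligands, which recruit activated T cells, rose with both agents. Cxcl9 read 10.66 and 10.56 with IFN-gamma, 9.49 and 9.48 with LPS and 3.55 and 3.77 at 0 h. Cxcl10 read 11.48 and 11.70 with IFN-gamma, 12.82 and 12.80 with LPS and 6.64 and 6.82 at 0 h. Cxcl9 was higher with IFN-gamma by 1.12 ± 0.43 (adjusted p = 0.0466), but it lost its call without any of the 4 arrays (adjusted p from 0.124 to 0.163), on centred arrays (0.98, adjusted p = 0.0803) and with trend and robust settings (adjusted p = 0.0602). Cxcl10 was lower with IFN-gamma at -1.22 ± 0.26 (adjusted p = 0.000219).

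The NF-kB pathway and its feedback genes had the largest share of lower members among the 18 lists. Of 22 measured, 18 were lower with IFN-gamma and none was higher, with a median of -1.49. Against 0 h, 4 rose with IFN-gamma and 21 with LPS. Traf1, a TNF receptor adaptor, read 7.45 and 7.03 with IFN-gamma, 10.82 and 10.84 with LPS and 6.66 and 6.81 at 0 h. Nfkbiz, a nuclear cofactor needed for Il6, read 7.08 and 6.87 with IFN-gamma, 10.57 and 10.45 with LPS and 5.71 and 5.80 at 0 h. Zc3h12a, the RNase Regnase-1 that degrades cytokine mRNA, read 7.50 and 7.43 with IFN-gamma, 9.98 and 10.18 with LPS and 7.40 and 7.55 at 0 h. The LPS arrays lay above the other 4 in all 3, at treatment differences of -3.59 ± 0.19 (adjusted p = 5.82e-18), -3.54 ± 0.24 (adjusted p = 2.52e-15) and -2.61 ± 0.16 (adjusted p = 1.73e-16). Nfkbia, the inhibitor IkB-alpha, and Tnfaip3, the deubiquitinase A20, differed by -1.86 ± 0.12 (adjusted p = 4.82e-16) and -2.09 ± 0.13 (adjusted p = 1.19e-16).

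Among 21 effector enzymes and acute phase genes 11 were lower with IFN-gamma and none was higher, with a median of -1.24. Nos2, which makes nitric oxide, read 8.25 and 7.88 with IFN-gamma, 12.22 and 12.24 with LPS and 3.54 and 3.78 at 0 h. Ptgs2, the inducible cyclooxygenase, read 10.37 and 10.27 with IFN-gamma, 13.24 and 13.32 with LPS and 5.46 and 5.78 at 0 h. Acod1, which makes itaconate, read 12.37 and 12.34 with IFN-gamma, 13.23 and 13.16 with LPS and 8.40 and 8.27 at 0 h. Both agents raised all 3 over 0 h, and the LPS arrays lay above the IFN-gamma arrays in each. Nos2 differed by -4.17 ± 0.86 (adjusted p = 0.000179) and Ptgs2 by -2.96 ± 0.54 (adjusted p = 3.07e-05), while Acod1 at -0.85 ± 0.27 (adjusted p = 0.0139) was not called. The secreted proteins Lcn2, a siderophore-binding lipocalin, and Saa3, an acute phase amyloid protein, and the membrane protease Mmp14 were not called between IFN-gamma and 0 h, and they were lower than with LPS, at -6.03 ± 0.63 (adjusted p = 4.35e-10), -5.48 ± 0.69 (adjusted p = 2.89e-08) and -4.62 ± 0.51 (adjusted p = 1.7e-09). With IFN-gamma, Lcn2 and Saa3 differed from 0 h by -0.25 ± 0.63 and 0.26 ± 0.69. Mmp14 read 7.23 and 7.11 with IFN-gamma and 6.07 and 6.05 at 0 h. That difference of 1.11 ± 0.51 (adjusted p = 0.174 in limma) passed the minimum of 1 but not the limit on adjusted p. Of the whole list 8 rose and 1 fell with IFN-gamma, and 15 rose and 1 fell with LPS.

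**Figure D3:**
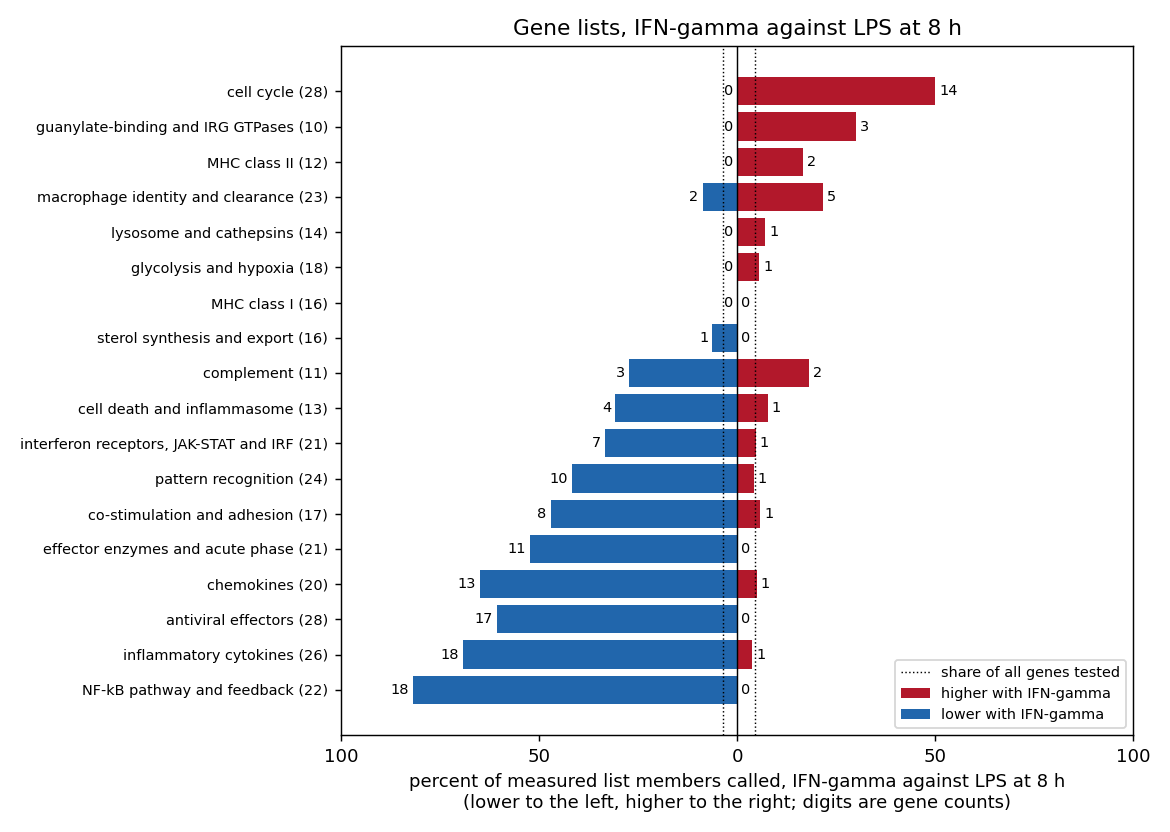
Percent of the measured members of 18 gene lists called between IFN-gamma and LPS at 8 h, lower with IFN-gamma to the left and higher to the right, with gene counts at the bars and dotted lines at the shares of all genes (3.62% and 4.44%). The NF-kB list reaches farthest to the left with 18 of 22, and the cell cycle list farthest to the right with 14 of 28.

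**Figure D4:**
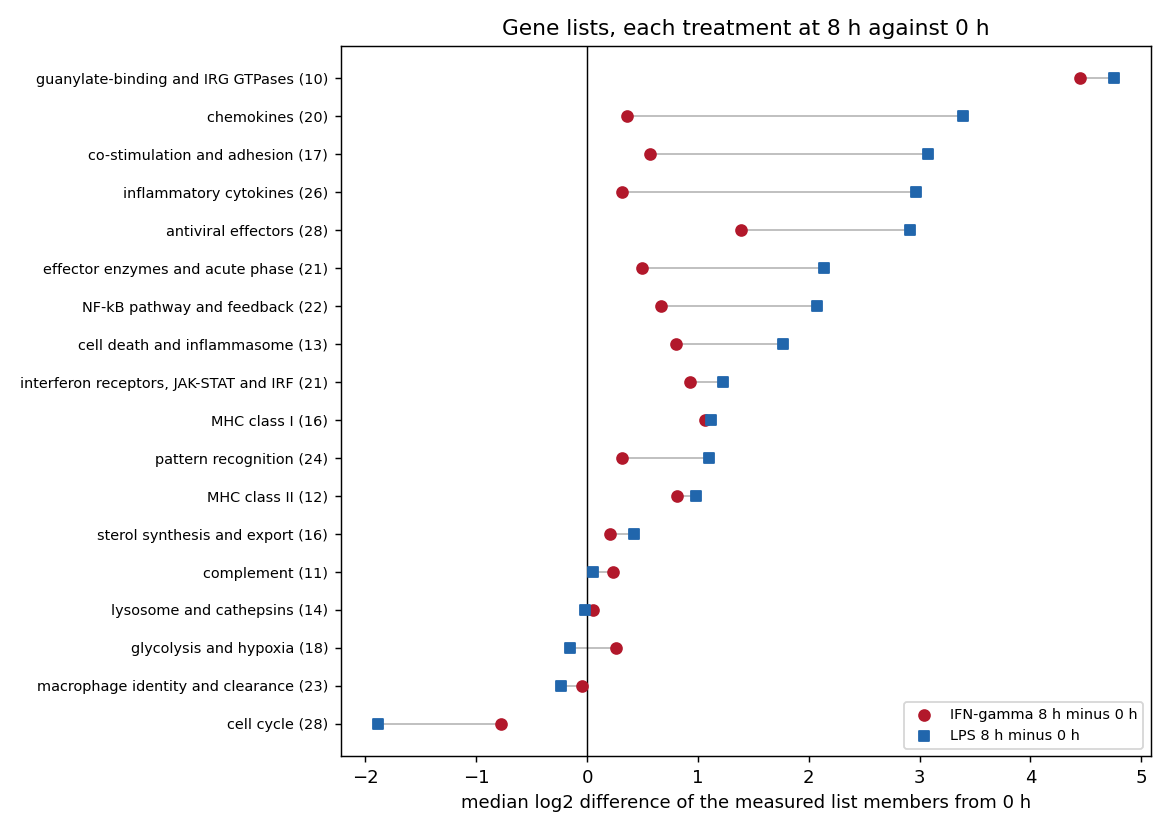
Median log2 difference from 0 h of the measured members of the 18 lists, IFN-gamma at 8 h as circles and LPS at 8 h as squares, which share the 0 h arrays. The GTPases (4.45 and 4.75) and MHC class I genes (1.07 and 1.12) stand close together, and the chemokines (0.36 and 3.39) and cytokines (0.32 and 2.97) far apart.

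Of 303 measured microRNA genes 9 were lower with IFN-gamma than with LPS and none was higher, with a median of -0.05. That share of 2.97% lies near the 3.62% of all genes that were lower, so the count is no result about microRNA genes as a class. All 9 rose with LPS over 0 h and none of the 9 was called between IFN-gamma and 0 h. With IFN-gamma, Mirlet7e and Mir99b lay above 0 h by 0.83 ± 0.26 (adjusted p = 0.0201 in limma) and 0.82 ± 0.26 (adjusted p = 0.0245), short of the minimum of 1. The probe sets read the gene locus in total RNA and do not tell the mature arms apart. The mature sequences from RefSeq (GRCm38.p6) are shown because the 9 genes fall into 6 seed families, with the seed, bases 2 to 8, in capitals. The 5p arms of miR-146a and miR-146b share a seed, as do the 3p arms of miR-221 and miR-222 and the 5p arms of miR-99a and miR-99b. The arms of miR-155, miR-125a and let-7e have seeds of their own among these.
mmu-miR-155-5p: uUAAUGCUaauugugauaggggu
mmu-miR-146a-5p: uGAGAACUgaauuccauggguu
mmu-miR-146b-5p: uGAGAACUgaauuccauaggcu
mmu-miR-221-3p: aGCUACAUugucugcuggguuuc
mmu-miR-222-3p: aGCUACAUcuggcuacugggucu
mmu-miR-99a-5p: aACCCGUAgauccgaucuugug
mmu-miR-99b-5p: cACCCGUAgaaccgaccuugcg
mmu-miR-125a-5p: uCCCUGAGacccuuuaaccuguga
mmu-let-7e-5p: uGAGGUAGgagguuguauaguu

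Mir155, a microRNA gene induced in activated macrophages, read 4.68 and 4.68 with IFN-gamma, 9.16 and 8.86 with LPS and 4.56 and 4.17 at 0 h. Its mature 5p arm lies at chr16:84714143-84714165 (+ strand), and the treatment difference was -4.33 ± 0.28 (adjusted p = 1.6e-15). Mir146, the locus of miR-146a, which targets the Tlr4 signalling adaptors Irak1 and Traf6, read 2.53 and 2.46 with IFN-gamma, 4.52 and 4.66 with LPS and 2.41 and 2.49 at 0 h. Mir146b read 4.31 and 3.74 with IFN-gamma, 5.50 and 6.30 with LPS and 4.08 and 4.10 at 0 h. The LPS arrays were the high ones at all 3 loci, and the other arrays of Mir146 lay under the dim level. The 2 genes of the miR-146 seed lie on different chromosomes, at chr11:43374435-43374456 (- strand) and chr19:46342790-46342811 (+), and differed by -2.10 ± 0.20 (adjusted p = 2.44e-11) and -1.88 ± 0.24 (adjusted p = 2.94e-08). Mir221 and Mir222, neighbours on the X chromosome at chrX:19146307-19146329 and chrX:19146901-19146923 (- strand), differed by -1.78 ± 0.27 (adjusted p = 1.53e-06) and -1.02 ± 0.27 (adjusted p = 0.00285). Mir222 fell under the minimum of 1 without the first IFN-gamma array (-0.96) and without the second LPS array (-0.88).

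Mir99b, Mirlet7e and Mir125a lie together on chromosome 17, with their 5p arms at chr17:17830194-17830215, chr17:17830366-17830387 and chr17:17830817-17830840 (+ strand). Mir99b read 5.65 and 5.77 with IFN-gamma, 6.97 and 6.86 with LPS and 4.94 and 4.84 at 0 h. The 3 neighbours differed by -1.21 ± 0.26 (adjusted p = 0.000276) for Mir99b, -1.32 ± 0.26 (adjusted p = 6.9e-05) for Mirlet7e and -1.41 ± 0.26 (adjusted p = 4e-05) for Mir125a. Mir99a, which shares the miR-99b seed from a locus on chromosome 16, differed by -1.16 ± 0.25 (adjusted p = 0.000317).

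Of 24 measured sensors of microbes and their adaptors 10 were lower with IFN-gamma, and Tlr4, the receptor for LPS itself, was higher, with a median of -0.97. Tlr4 read 9.60 and 9.47 with IFN-gamma, 8.09 and 8.22 with LPS and 9.11 and 9.02 at 0 h, with the LPS arrays lowest. Its co-receptor Cd14 read 10.47 and 10.40 with IFN-gamma, 12.33 and 12.24 with LPS and 11.44 and 11.37 at 0 h, with the LPS arrays highest. The treatment differences were 1.38 ± 0.15 (adjusted p = 6.15e-10) for Tlr4 and -1.85 ± 0.11 (adjusted p = 6.52e-17) for Cd14. The changes from 0 h, by 0.47 ± 0.15 and -0.91 ± 0.15 for Tlr4 and by -0.96 ± 0.11 and 0.89 ± 0.11 for Cd14 with IFN-gamma and LPS, stayed under the minimum of 1. Clec4e, the receptor Mincle for mycobacterial glycolipids, Nlrp3, the inflammasome sensor, and Tlr2, the lipoprotein receptor, were lower with IFN-gamma, at -2.75 ± 0.20 (adjusted p = 1.87e-14), -2.09 ± 0.12 (adjusted p = 5.24e-17) and -1.97 ± 0.14 (adjusted p = 7.87e-15). Each of the last 3 rose with LPS and was not called between IFN-gamma and 0 h. With IFN-gamma, Tlr2 and Nlrp3 lay above 0 h by 0.69 ± 0.14 (adjusted p = 0.000242 in limma) and 0.38 ± 0.12 (adjusted p = 0.0284), short of the minimum. Clec4e differed from 0 h by -0.14 ± 0.20.

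Of 17 co-stimulation and adhesion genes 8 were lower with IFN-gamma and Slamf8 was higher, with a median of -0.99. Against 0 h, 8 of the 17 rose with IFN-gamma and 12 with LPS. Slamf8, a SLAM-family receptor that restrains macrophage oxidase activity and carries ISRE in the promoter shown, read 9.60 and 9.42 with IFN-gamma, 7.40 and 7.45 with LPS and 5.10 and 5.38 at 0 h, a difference of 2.09 ± 0.29 (adjusted p = 1.81e-07). Cd40, the receptor for T cell help, read 10.12 and 10.03 with IFN-gamma, 12.66 and 12.66 with LPS and 6.21 and 6.37 at 0 h. Cd86, a ligand of Cd28, read 8.93 and 8.89 with IFN-gamma, 9.19 and 9.24 with LPS and 5.99 and 5.93 at 0 h. Cd40 differed between the treatments by -2.59 ± 0.25 (adjusted p = 6.9e-11) and Cd86 did not pass, at -0.30 ± 0.17 (adjusted p = 0.208). Cd274, the checkpoint ligand PD-L1, rose with both agents, by 2.55 ± 0.20 (adjusted p = 7.09e-13) with IFN-gamma and 3.14 ± 0.20 (adjusted p = 2.07e-16) with LPS, and its treatment difference of -0.60 was under the minimum. The SLAM receptor gene Slamf1, the adhesion receptor gene Vcam1 and the inhibitory ligand gene Cd200 rose with LPS and were not called between IFN-gamma and 0 h, at treatment differences of -4.72 ± 0.22 (adjusted p = 5.62e-20), -4.22 ± 0.29 (adjusted p = 4.08e-15) and -3.18 ± 0.22 (adjusted p = 5.35e-15).

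Cell cycle genes were the list with the most members on the IFN-gamma side. Of 28 measured, 14 were higher with IFN-gamma and none was lower, with a median of 1.02. Against 0 h, 8 fell with IFN-gamma and 25 with LPS, at medians of -0.78 and -1.89. Mcm7, a subunit of the replicative helicase, read 9.36 and 9.18 with IFN-gamma, 7.29 and 7.47 with LPS and 10.66 and 10.60 at 0 h. Mcm2 of the same helicase read 8.83 and 8.94 with IFN-gamma, 7.09 and 7.12 with LPS and 10.28 and 10.30 at 0 h. Rrm2, the regulated subunit of ribonucleotide reductase, read 9.41 and 9.30 with IFN-gamma, 7.81 and 7.64 with LPS and 10.94 and 10.89 at 0 h. All 3 stood in the order 0 h, IFN-gamma, LPS from high to low with no overlap. The treatment differences were 1.89 ± 0.12 (adjusted p = 1.33e-15) for Mcm7, 1.78 ± 0.14 (adjusted p = 5.15e-13) for Mcm2 and 1.63 ± 0.22 (adjusted p = 9.8e-08) for Rrm2. Ccna2, cyclin A2 of S and G2 phase, fell with LPS at -2.19 ± 0.31 (adjusted p = 1.36e-07) from 0 h, was not called with IFN-gamma at -0.60 ± 0.31 (adjusted p = 0.235), and differed between the agents by 1.60 ± 0.31 (adjusted p = 5.69e-05).

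Of 23 macrophage identity genes 5 were higher and 2 lower with IFN-gamma, with a median of 0.26. Cebpa, a myeloid lineage factor, read 8.86 and 8.84 with IFN-gamma, 6.47 and 6.32 with LPS and 9.42 and 9.31 at 0 h. Pparg, a lipid-sensing nuclear receptor, read 9.25 and 9.33 with IFN-gamma, 6.80 and 7.19 with LPS and 9.43 and 9.46 at 0 h. Ccr2, the receptor for monocyte chemokines, read 7.00 and 7.37 with IFN-gamma, 5.39 and 4.95 with LPS and 6.90 and 6.88 at 0 h. In these the LPS arrays lay below the other 4, and the treatment differences were 2.45 ± 0.25 (adjusted p = 1.42e-10), 2.29 ± 0.18 (adjusted p = 1.24e-13) and 2.02 ± 0.22 (adjusted p = 1.04e-09). The activating IgG receptors Fcgr4 and Fcgr3 were higher with IFN-gamma by 1.86 ± 0.17 (adjusted p = 7.86e-12) and 1.32 ± 0.20 (adjusted p = 1.47e-06), and the inhibitory receptor Fcgr2b was lower at -1.39 ± 0.15 (adjusted p = 9.89e-10). Fcgr4 rose with IFN-gamma by 2.57 ± 0.17 (adjusted p = 5.01e-15) over 0 h, and Fcgr2b rose with LPS by 1.31 ± 0.15 (adjusted p = 2.14e-09). Nr1h3, the oxysterol receptor LXR-alpha, was lower with IFN-gamma at -1.94 ± 0.13 (adjusted p = 2.44e-15). Cx3cr1, the fractalkine receptor, read 6.75 and 6.60 with IFN-gamma, 6.33 and 6.62 with LPS and 9.57 and 9.36 at 0 h and fell with both agents.

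Of 11 complement genes 2 were higher and 3 lower with IFN-gamma, with a median of 0.36. Cfb, factor B of the alternative pathway, read 6.80 and 6.77 with IFN-gamma, 10.76 and 10.75 with LPS and 4.89 and 4.97 at 0 h, a treatment difference of -3.97 ± 0.71 (adjusted p = 2.1e-05). C5ar1, the receptor for the anaphylatoxin C5a, read 8.09 and 8.32 with IFN-gamma, 10.21 and 10.28 with LPS and 10.07 and 9.74 at 0 h. C1qb, a chain of C1q, read 9.57 and 9.56 with IFN-gamma, 8.15 and 8.26 with LPS and 8.22 and 8.19 at 0 h. For C5ar1 and C1qb the IFN-gamma arrays were the ones apart from 0 h, below it for C5ar1 and above it for C1qb, with treatment differences of -2.04 ± 0.13 (adjusted p = 6.04e-16) and 1.36 ± 0.13 (adjusted p = 6.96e-11). C1rl and C2 were called near the minimum at 1.02 and -1.01. C1rl lost its call on centred arrays (0.88), with quantile normalisation (0.95), without the first IFN-gamma array (0.98) and without the first LPS array (0.85), and C2 lost it without the second IFN-gamma array (-0.86) and without the first LPS array (-0.87).

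Of 13 cell death genes Ripk3, a kinase of necroptosis, was higher with IFN-gamma by 1.16 ± 0.10 (adjusted p = 7.47e-13) and 4 were lower, with a median of -0.75. The TNF receptor gene Tnfrsf1b, the death receptor gene Fas and the apoptosis-related Daxx were lower at -2.21 ± 0.16 (adjusted p = 5.44e-14), -1.35 ± 0.21 (adjusted p = 2.56e-06) and -1.5 ± 0.14 (adjusted p = 4.07e-11). Xaf1, an interferon-induced antagonist of XIAP, was lower at -1.12 ± 0.20 (adjusted p = 2.62e-05), or -0.99 without the second IFN-gamma array. Calls in the metabolic lists were 5.56% of the glycolysis and hypoxia genes, 6.25% of the sterol genes and 7.14% of the lysosome genes, near the 8.07% of all genes. Of 18 glycolysis and hypoxia genes 1 was called, Pdk1, a kinase that inhibits pyruvate dehydrogenase, at 1.37 ± 0.16 (adjusted p = 2.77e-09), and the list's median was 0.28. Slc16a3, a lactate exporter, and Bnip3, a mitophagy receptor, differed by 0.93 ± 0.08 (adjusted p = 6.54e-13) and 0.66 ± 0.14 (adjusted p = 0.000225) without reaching the minimum. Of 16 sterol genes only the cholesterol exporter Abca1 was called. It read 7.63 and 7.41 with IFN-gamma, 9.85 and 10.15 with LPS and 9.34 and 9.39 at 0 h, a difference of -1.84 ± 0.22 (adjusted p = 4.16e-08) from 0 h with IFN-gamma and a treatment difference of -2.48 ± 0.22 (adjusted p = 8.29e-12). The synthesis enzymes Dhcr7 and Cyp51 differed by 0.86 and -0.81. Of 14 lysosome genes Ctse, an aspartic protease of antigen processing, was higher with IFN-gamma at 1.24 ± 0.24 (adjusted p = 9.63e-05). The protease Ctsc and the lysosomal regulator Tfeb differed by 0.82 and 0.81, under the minimum. Medians were -0.26 for the sterol list and 0.10 for the lysosome list.

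The 8 h contrast was set in its time course with the arrays of both agents at 1, 2, 4 and 24 h. Cxcl9 already read 6.98 and 6.87 with IFN-gamma at 1 h, against 3.38 and 3.95 with LPS, and at 4 h it read 10.20 and 9.80 with IFN-gamma and 8.82 and 8.64 with LPS. Mx2 crossed between 2 and 4 h. At 2 h it read 7.64 and 7.18 with IFN-gamma and 5.52 and 5.88 with LPS, and at 4 h 7.10 and 7.65 with IFN-gamma and 10.10 and 10.09 with LPS. The Ciita arrays of the agents overlapped at 4 h, at 7.53 and 7.97 with IFN-gamma and 7.88 and 7.74 with LPS, and had parted by 8 h. Il6 lay between 9.69 and 11.71 with LPS from 4 h on, and with IFN-gamma its arrays disagreed at 2 h (5.78 and 3.50) and at 4 h (3.63 and 6.56). Mir155 read 7.99 and 8.08 with LPS at 1 h already, and 4.14 and 4.21 with IFN-gamma.

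A test of whether the difference between the agents was the same at 8 h and at 24 h called 1116 genes, 5.93% of those tested, with 590 (3.13%) more positive at 8 h and 526 (2.79%) more negative. Of the 28 cell cycle genes 19 were more negative at 8 h and none was more positive, with a median of -1.55, against 0.0012 over all genes. Ccna2 read 10.98 and 10.92 with IFN-gamma at 24 h and 5.55 and 5.24 with LPS, so that its difference had widened, by a contrast of 8 h minus 24 h of -3.96 ± 0.43 (adjusted p = 5.43e-09). Of the 18 glycolysis and hypoxia genes 7 were more positive at 8 h and none was more negative. Vegfa was higher with IFN-gamma at 8 h, but at 24 h it read 8.90 and 8.85 with IFN-gamma and 9.48 and 9.16 with LPS, a contrast of 2.48 ± 0.24 (adjusted p = 2.82e-10). Neither the GTPases (0 of 10), the antiviral effectors (0 of 28) nor the MHC class I genes (0 of 16) held a gene called in this test by limma. At an unadjusted p under 0.05 the lists had 0, 5 and 5 such genes, and all genes tested had 4890. LPS at 24 h had 1 array in the smaller batch, and without it 1144 genes were called.

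**Figure D5:**
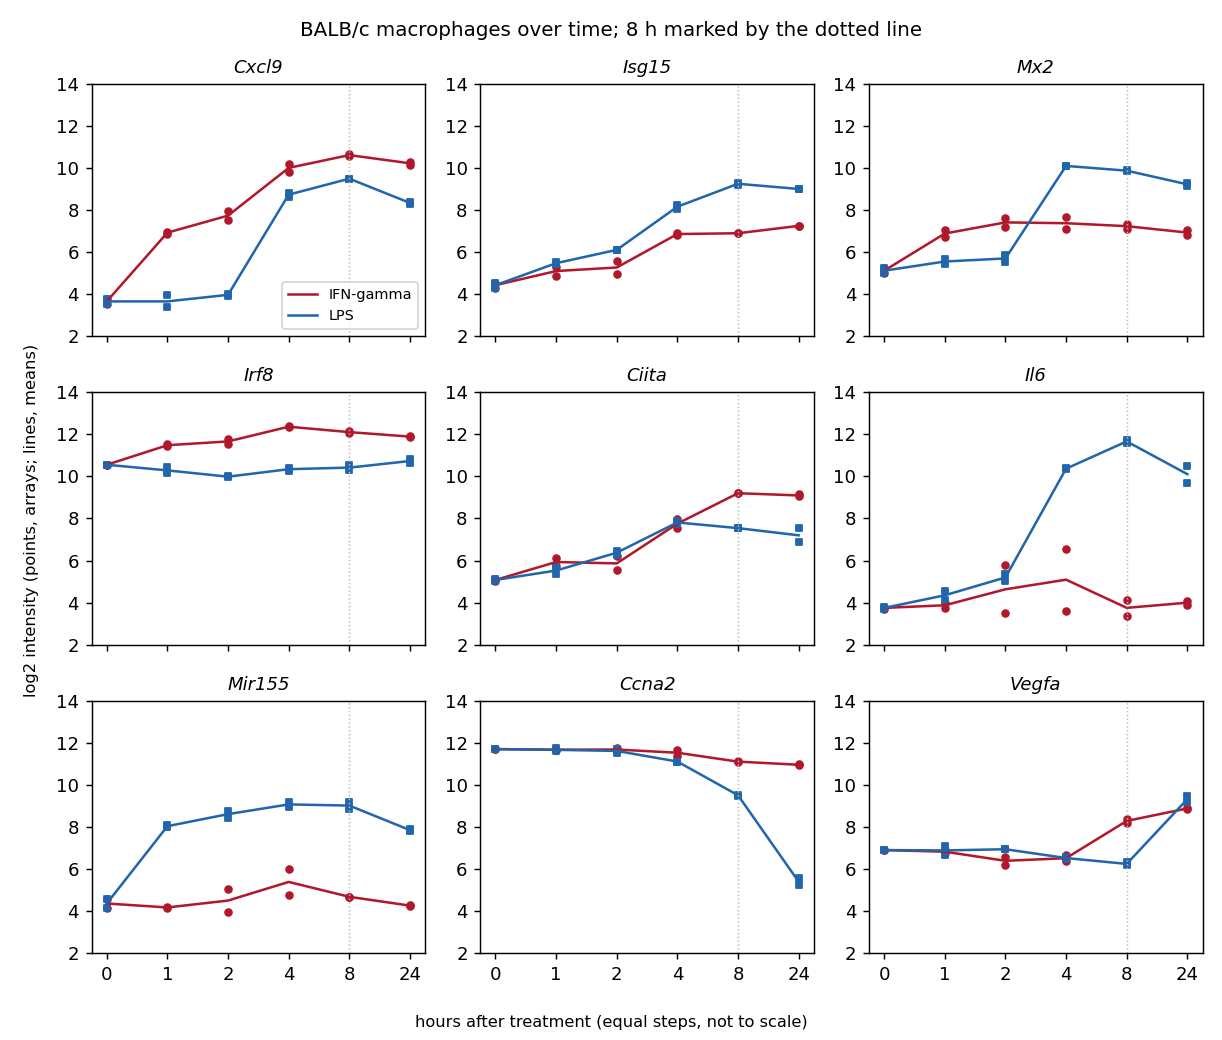
Log2 intensity of 9 genes at 0, 1, 2, 4, 8 and 24 h in equal steps, with points for arrays and lines for means of 2, IFN-gamma in red and LPS in blue from the same 0 h arrays, and a dotted line at 8 h. Cxcl9 and Irf8 lie higher with IFN-gamma from 1 h on, Mx2 crosses between 2 and 4 h, and Ccna2 goes on falling with LPS to 24 h.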

How the data were processed

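Each Affymetrix array held the labelled RNA of 1 culture well. The deposited values are linear probe set intensities that the authors had normalised; the method is not given in the sources used here. The submitters' processing notes name Affymetrix Expression Console 1.1.

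Log2 intensities were used without further normalisation or filter, with 1 probe set per gene (highest mean), 18820 genes in all. Of 35556 probe sets, 21218 had 1 gene symbol, 1881 several and 12457 none; only the first kind was used. Group means of all 64 arrays were fitted in limma 3.58.1 (R 4.3.3) with 32 residual degrees of freedom, so the spread is pooled over 32 groups, with Benjamini-Hochberg adjustment over the 18820 genes. The number of arrays limits the precision. In simulated data with 50 genes changed by 1.5 log2, 49 were recovered for IFN-gamma against LPS, and 1 false call was made among the 18820 genes. The simulated noise was normal with 1 spread per gene in all groups, as the fit assumes. It therefore cannot show how the fit does for genes whose spread differs between groups. Tables and figures were made in Python 3.11 with pandas 2.3.3 and matplotlib 3.10.9.

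The labels name no array batch. Array scores from probe sets without a gene were cut at their widest gap, a step that always splits the arrays. The resulting sets of 53 and 11 arrays are called batches here, and all 6 arrays compared lie in the larger. Same-numbered replicates did not deviate together (r from -0.0283 to 0.0048 for their deviations), so no block was used in the main analysis.

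The 18 gene lists, 8 marker lists and comparisons were chosen with earlier results of these data known. The rule for named genes took the 12 highest and 12 lowest called genes with non-overlapping arrays and no gene-model name, the 3 list members with the largest absolute difference, and members behind counts of 5 or fewer. A further 42 genes and the microRNA genes were named after their values were seen. Alternatives were array centring, quantile normalisation, leaving out genes under the 40th percentile, the mean of probe sets, only the arrays compared, only BALB/c arrays, limma's trend and robust options, a call without the minimum of 1, a replicate block, the batch as covariate and each array left out. Some list members were not analysed here.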

Additional observations from a re-analysis of the deposited data

Results flagged for a closer look

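The difference between IFN-gamma and LPS itself differed between 8 h and 24 h for 1116 genes, by limma's test of that interaction (adjusted p under 0.05 and a contrast of at least 1). Of the 139 genes named here 39 were among them, against 5.93% of all genes tested. Many of the 139 were named for a large difference at 8 h, which is part of this contrast. The count of 39 is therefore no result about the named genes. The values below are that contrast in log2, IFN-gamma minus LPS at 8 h less the same at 24 h, with n = 2 arrays in each of the 4 groups. Either sign can come from a gap that narrowed, widened or turned by 24 h. The difference went from -6.22 at 8 h to -2.83 at 24 h for Shisa3, and from 1.72 to 4.23 for Clec9a. For Cnr2 it went from 4.14 to 1.68, and for Dcn from -2.16 to -4.21. Its sign changed for Vegfa (2.04 to -0.44), C1rl (1.02 to -1.22), Slc16a3 (0.93 to -1.11), Bnip3 (0.66 to -1.61), Cyp51 (-0.81 to 0.33) and Mir99a (-1.16 to 0.44).

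Of genes whose difference was more positive at 8 h, the contrast was 2.48 for Vegfa, 2.47 for Cnr2, 2.27 for Bnip3, 2.24 for C1rl, 2.19 for Cd300lf, 2.16 for Cebpa, 2.05 for Dcn, 2.04 for Slc16a3 and 1.91 for Gcnt1. It was 1.42 for Tnfsf13b, 1.19 for Pdk1, 1.16 for Klf2 and 1.15 for Sting1. Klf2, a factor of quiescent cells, read 9.10 and 8.89 with IFN-gamma and 6.41 and 6.66 with LPS at 8 h, and 8.58 and 8.63 with IFN-gamma and 7.55 and 7.05 with LPS at 24 h.

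Of genes with a more negative difference at 8 h, cell cycle genes had contrasts of -3.96 for Ccna2, -2.98 for Rrm2 and -1.39 for Mcm7. Cytokine and chemokine genes had -3.05 for Il27, -2.73 for Ccl17, -2.42 for Cxcl1 and -1.41 for Il12a. Complement genes had -2.06 for C1qb and -2.03 for C5ar1. Receptor, adhesion and surface protein genes had -3.39 for Shisa3, -2.69 for Vcam1, -2.52 for Clec9a, -1.76 for Itgb8, -1.38 for Ccr9, -1.37 for Pdgfrb and -1.27 for Sectm1a. Regulators and enzymes had -2.73 for Cish, -1.46 for Nfkbiz, -1.43 for Nlrp3, -1.38 for Mex3b, -2.24 for Rnase6 and -1.13 for Cyp51. MicroRNA genes had -1.60 for Mir99a, -1.55 for Mir146b, -1.37 for Mir146 and -1.19 for Mir125a. Of the 39 genes 36 were called with each of the 8 arrays left out in turn. Itgb8 lost its call without any array but the first of LPS at 24 h (adjusted p from 0.05 to 0.103). Mir125a lost it without the second array of any of the 4 groups (adjusted p from 0.0674 to 0.15), and Klf2 without the first array of LPS at 24 h (0.91).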

How the results depend on the processing

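The counts of called genes stayed within 1.5 times of the values reported under every alternative except the one without a minimum change, which by its construction called more: 5236 genes between IFN-gamma and LPS, 2829 between IFN-gamma and 0 h, 6555 between LPS and 0 h and 2898 in the comparison of 8 h with 24 h. With each array left out in turn the counts ran from 1497 to 1620, from 490 to 533, from 2332 to 2475 and from 1072 to 1241 in the same order. The replicate block gave 1518 genes between IFN-gamma and LPS, but same-numbered samples share only a number. Centring each array gave 1472 genes, 641 higher with IFN-gamma and 831 lower, and between LPS and 0 h 1224 up and 984 down, against 978 and 1394 as reported. Of the alternative values of single named genes 1903 kept their direction and side of the threshold, 21 lost the call, 19 gained it and 3 turned. The 3 are of genes not called: Cx3cr1 was -0.031 with quantile normalisation, against 0.20, and H2-Aa was 0.02 without the second IFN-gamma array and 0.12 without the first LPS array, against -0.10, with a range of -0.32 to 0.12 over the arrays left out. The genes that lost a call are Cxcl9, Iigp1, C1rl, C2, Xaf1, Irf7, Ifnb1 and Mir222, whose values stand in the report; the cause was not tested. Dim signal limits the differences of the 11 named genes whose mean lay under the dim level with IFN-gamma or LPS.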

Other observations

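Some genes outside the lists were raised by IFN-gamma alone or more than by LPS. They were chosen after their values were seen. Fgl2, a prothrombinase of activated macrophages, read 10.59 and 10.65 with IFN-gamma, 8.92 and 9.06 with LPS and 5.50 and 5.46 at 0 h, a treatment difference of 1.63 ± 0.32 (adjusted p = 0.000104). Sting1, the sensor adaptor for cytosolic cyclic dinucleotides, read 11.31 and 11.34 with IFN-gamma, 8.88 and 8.92 with LPS and 9.73 and 9.62 at 0 h. Tnfsf13b, the B cell survival factor BAFF, read 8.70 and 8.82 with IFN-gamma, 6.46 and 6.32 with LPS and 7.16 and 7.33 at 0 h. Sting1 and Tnfsf13b were called above 0 h with IFN-gamma, and both LPS arrays lay below 0 h, short of the minimum of 1. Their treatment differences were 2.42 ± 0.10 (adjusted p = 1.3e-20) for Sting1 and 2.37 ± 0.16 (adjusted p = 1.92e-15) for Tnfsf13b, and the other probe set of Tnfsf13b gave 0.90. Ank2, an ankyrin gene, read 8.95 and 8.72 with IFN-gamma, 5.88 and 5.63 with LPS and 5.87 and 5.98 at 0 h. Rnase6, an antimicrobial ribonuclease gene, read 10.00 and 10.04 with IFN-gamma, 7.96 and 8.02 with LPS and 7.63 and 7.62 at 0 h. In both genes the IFN-gamma arrays stood far above the rest, at differences from 0 h of 2.91 ± 0.16 (adjusted p = 2.12e-17) and 2.40 ± 0.11 (adjusted p = 1.14e-18). The LPS arrays of Rnase6 also lay above 0 h, by 0.37 ± 0.11 (adjusted p = 0.00931 in limma), short of the minimum of 1.

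Other genes fell with IFN-gamma. Dusp1, a MAP kinase phosphatase, read 8.60 and 8.75 with IFN-gamma, 10.17 and 10.18 with LPS and 10.62 and 10.68 at 0 h. Pilra, an inhibitory receptor gene of myeloid cells, read 8.46 and 8.54 with IFN-gamma, 11.02 and 11.13 with LPS and 9.97 and 9.90 at 0 h. Cd300e, an activating receptor gene of monocytes, read 5.65 and 5.53 with IFN-gamma, 7.14 and 7.74 with LPS and 6.88 and 6.74 at 0 h. The IFN-gamma arrays were the lowest in all 3, at differences from 0 h of -1.97 ± 0.19 (adjusted p = 1.18e-10), -1.44 ± 0.19 (adjusted p = 3.33e-07) and -1.22 ± 0.19 (adjusted p = 6.98e-06). Pilra moved in opposite directions, with a rise of 1.14 ± 0.19 (adjusted p = 5.24e-06) with LPS. Among genes that were high with LPS alone, Fscn1, an actin-bundling protein gene of dendritic cells, read 4.71 and 5.47 with IFN-gamma, 10.80 and 10.85 with LPS and 5.30 and 4.92 at 0 h, a treatment difference of -5.73 ± 0.48 (adjusted p = 1.08e-12). Itgb8, an integrin subunit that activates TGF-beta, and Shisa3 showed the same pattern at -6.16 ± 0.41 (adjusted p = 1.92e-15) and -6.22 ± 0.45 (adjusted p = 3e-14).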
